A study of Mus musculus with 14 samples.

Results

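The 8 genes described here, *Icam1*, *Icam2*, *Vcam1*, *Madcam1*, *Sele*, *Selp*, *Cd34* and *Pecam1*, encode surface proteins of endothelial cells (ECs) that capture leukocytes from the blood and guide them across the vessel wall. They were chosen by name, as adhesion molecules with a known role in leukocyte traffic, and with earlier results of these data known. They are 8 of the 26528 gene symbols measured in the brain and of the 28316 measured in the retina. The study removed *Tgfbr1*, a receptor for TGF-beta, from ECs of *Cdh5CreER;Tgfbr1 CKO/-* mice (CKO), in which a Cre recombinase driven by the *Cdh5* promoter was activated with 4-hydroxytamoxifen (4HT) between postnatal days 3 and 5. Nuclei were profiled by single-nucleus RNAseq from whole retinas (1 control and 11 CKO libraries) and from brain vascular fragments enriched by centrifugation through Ficoll (1 control and 1 CKO library, each from 2 pooled brains). Whether the control mice were also given 4HT is not stated. The CKO mice carried 1 floxed and 1 null allele of *Tgfbr1*. The control libraries are labeled wild type, and the study calls its controls phenotypically wild type and typically *Cdh5CreER;Tgfbr1 CKO/+*, so the exact alleles behind each control library are not known here. The study's age for these nuclei is P14, whereas the labels call the mice young adults. How many mice each retina library came from is not stated.

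Leukocytes leave the blood in steps. Selectins on ECs (E-selectin from *Sele*, P-selectin from *Selp*) hold rolling leukocytes by their sugar-bearing ligands, immunoglobulin-type proteins (ICAM1, ICAM2, VCAM1 and MADCAM1) then bind leukocyte integrins and arrest the cells, and PECAM1 at EC junctions takes part in their passage between ECs. The ECs of the healthy brain and retina form a tight barrier and are known for low levels of the adhesion proteins that inflammatory cytokines induce through NF-kappaB.

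Each deposited value is a count of unique molecular identifiers (UMIs), the tags that mark single captured transcripts. UMIs were summed over the nuclei that share a cell type label of the authors, and a level is given as CPM, the UMIs of a gene per 1000000 UMIs of that sum. The brain control library held 16649 nuclei and 49798325 UMIs (median 1541 per nucleus), and the brain CKO library held 14675 nuclei and 31033373 UMIs (median 1395). Of these, 2475 control and 2944 CKO nuclei had the EC label, with 5801552 and 6851854 UMIs and medians of 1347 and 1491 per nucleus. The retina control library held 11513 nuclei and 30989702 UMIs. The retina CKO libraries held 104 to 18862 nuclei (median 4210) and 90449 to 55803724 UMIs (median 16443337). CKO replicate 4 stood apart, with 104 nuclei, of which 62.5% had the immune label, against 0.252% in the control library and at most 1.21% in the other CKO libraries. The brain libraries shared 2 cell barcodes, and 9 of 66 pairs of retina libraries shared at most 2. The PIPseq kit was v5.0 for retina CKO replicates 8 to 11 and v4.0 PLUS for all other libraries.

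*Tgfbr1* itself was at 69.1 CPM in control brain ECs and at 62.9 CPM in CKO brain ECs, a CKO over control ratio of 0.910 (95% interval 0.793 to 1.05). In whole retinas it was at 89.0 CPM in the control and between 71.4 and 87.0 CPM in the CKO libraries other than replicate 4, which had 365 CPM. Since a gene's count includes transcripts that lack the deleted part, these levels are no check of the deletion. *Xist*, a transcript of the inactive X chromosome, was at 1963 CPM in the brain control library and at 1.29 CPM in the brain CKO library, so in the brain the sex of the mice and the genotype cannot be told apart. In the retina the control and 4 CKO libraries were above 1000 CPM of *Xist*, and 7 CKO libraries were below 20 CPM.

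The brain EC label was checked against marker genes. All 12 endothelial markers had UMIs in both EC sums, with *Flt1* the most abundant, and together they made up 16393 CPM in control and 13065 CPM in CKO. Markers of other cells were also present. The 10 pericyte markers summed to 8594 CPM in control and 7314 CPM in CKO (most abundant *Rgs5*), and the 7 fibroblast markers to 940.1 and 678.5 CPM (*Col1a2*). The 6 markers of choroid plexus and ependyma summed to 1123 and 478 CPM (*Ttr*). Ratios of *Vcam1* in nuclei chosen by such markers are given with that gene.

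In brain ECs the adhesion gene with the highest CKO over control ratio, among those with at least 50 UMIs in both libraries together, was *Madcam1*, at 3.10 CPM in control and 17.5 CPM in CKO. *Sele* had 0 UMIs in control and 15 in CKO. The other genes with that many UMIs, *Icam1*, *Icam2*, *Vcam1*, *Cd34* and *Pecam1*, differed by less than 1.5-fold. With 1 library per genotype no test can be made, no replicate stands behind a difference, and intervals (95%, exact Poisson for CPM, exact conditional binomial for ratios, exact binomial for shares) cover counting error only. A gene was counted as different where its CPM differed at least 1.5-fold and it had at least 50 UMIs. Of the 6 adhesion genes with that many, 1 (*Madcam1*, which reached the minimum through its 120 CKO UMIs) was higher in CKO, beside 21.4% of the 11351 genes compared, and 0 were lower, beside 9.32%. The median ratio was 0.929 over these 6 genes and 1.10 over all 11351, which is 0.14 on the log2 scale. TMM scaling, which sets most genes to no change, shifted every log2 ratio by -0.10. It left 1 adhesion gene higher and 0 lower, and moved the shares of all genes to 17.5% higher and 12.2% lower.

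**Figure D1:**
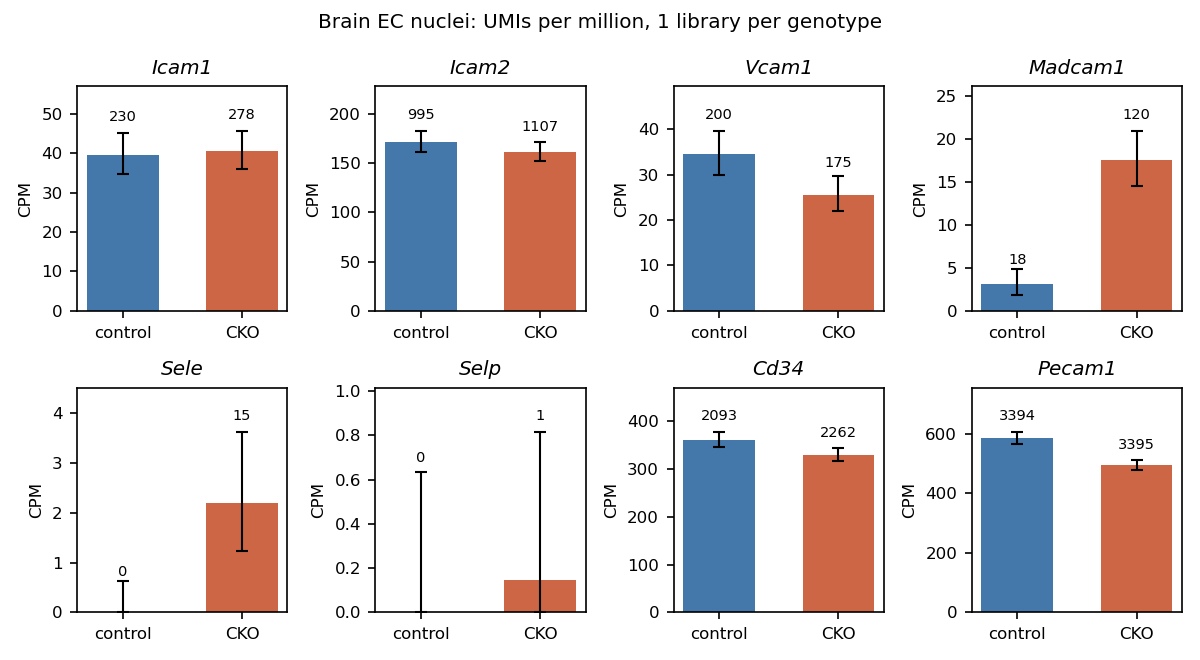
CPM of each adhesion gene in brain EC nuclei of the control (blue) and CKO (orange) library, with a linear axis from 0 for each gene, exact Poisson 95% intervals as error bars and the number of UMIs above each bar. The bars of *Madcam1* stand at 3.10 and 17.5 CPM with intervals that do not overlap, *Sele* has 0 and 15 UMIs, and the intervals of *Icam1* and *Icam2* overlap between the libraries.

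The selectins act first, when leukocytes begin to roll. *Sele* was at 0 CPM in control ECs, where 0 UMIs allow up to 0.636 CPM, and at 2.19 CPM in CKO ECs (1.23 to 3.61). The CKO level was 4.23 times a floor of 3 UMIs in the control EC sum (0.517 CPM), and the exact interval of the ratio, which has no upper end, begins at 3.04. All 15 of its UMIs in the CKO brain library were in EC nuclei, and the control library held 1 UMI, in a nucleus of the glutamatergic label Glut_1. These UMIs came from 13 of 2944 CKO EC nuclei, or 0.442% (0.235 to 0.754), and from 0 of 2475 control EC nuclei. *Sele* was therefore detected in a small minority of CKO EC nuclei at this depth. In neurons, which should lack E-selectin, 1 of 8229 control nuclei (median 2380 UMIs) and 0 of 8366 CKO nuclei (median 1847) had a UMI. After each nucleus was thinned to 1000 UMIs, which kept 1470 control and 1889 CKO EC nuclei, the share was 0% and 0.241%.

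*Selp*, the selectin stored in granules of platelets and ECs, had 0 UMIs in control ECs and 1 in CKO ECs, so no fold is given. Of its UMIs in all brain nuclei, 0 of 19 in control and 1 of 15 in CKO were in EC nuclei. P-selectin transcripts were thus not detectable above background in brain ECs of either library, since neurons had a UMI in 0.158% of control and 0.155% of CKO nuclei, above the 0% and 0.0340% of EC nuclei.

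*Cd34* encodes a sialomucin that can present sugar ligands to L-selectin of leukocytes. It was at 361 CPM in control ECs (345 to 377) and at 330.1 CPM in CKO ECs (317 to 344), a ratio of 0.915 (0.862 to 0.972). The CKO level in the EC label was lower by more than the counting error, but in EC nuclei with at least 1000 UMIs the ratio was 0.953 (0.893 to 1.02), within it. A UMI was found in 47.2% of control and 45.7% of CKO EC nuclei, and in 0.401% and 0.0120% of neurons. The direction turned in EC nuclei with UMIs of proliferation genes (ratio 1.13, 1.00 to 1.28) and where nuclei were taken by marker genes in place of the label. Nuclei of any label with UMIs of at least 2 endothelial markers gave a ratio of 1.25 (1.18 to 1.33). By vessel zone, as set out with *Vcam1* below, the ratio was 0.892 (0.839 to 0.948) in capillary nuclei. It was 1.40 (0.858 to 2.28) in arterial nuclei and 3.74 (1.25 to 15.0) in venous nuclei, which held 4 control and 20 CKO UMIs.

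*Icam1* and *Icam2* encode ligands of the beta-2 integrins, of which ICAM1 is the cytokine-inducible one and ICAM2 is present on resting ECs. *Icam1* was at 39.6 CPM in control ECs (34.7 to 45.1) and at 40.6 CPM in CKO ECs (35.9 to 45.6), a ratio of 1.02 (0.856 to 1.22). *Icam2* was at 172 CPM (161 to 183) and at 162 CPM (152 to 171), a ratio of 0.942 (0.864 to 1.03). For both genes the difference in EC-labeled nuclei lay within the counting error. In nuclei of any label with UMIs of at least 2 endothelial markers, the ratio was instead above 1 by more than the counting error, at 1.27 (1.08 to 1.504) for *Icam1* and 1.19 (1.10 to 1.29) for *Icam2*. This rule also took in nuclei of other labels, with totals given under *Pecam1* below, and their mix may differ between the libraries. What part that mix has in these ratios was not tested. A UMI of *Icam1* was found in 7.31% of control and 7.44% of CKO EC nuclei, and one of *Icam2* in 27.3% and 27.5%. In neurons no more than 0.0365% of nuclei had a UMI of either gene in either library. Thinned to 1000 UMIs per nucleus, the shares of *Icam1* were 3.60% and 3.63%, and those of *Icam2* 15.4% in both libraries.

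*Vcam1* encodes the ligand of the integrin alpha-4 beta-1 on lymphocytes and monocytes. It was at 34.5 CPM in control ECs (29.9 to 39.6) and at 25.5 CPM in CKO ECs (21.9 to 29.6), a ratio of 0.741 (0.601 to 0.912). Unlike the levels of *Icam1* and *Icam2*, the level of *Vcam1* in the EC label depended on which nuclei were summed. Among EC nuclei with more endothelial than pericyte and smooth muscle marker UMIs, it was at 16.3 CPM in control and 23.5 CPM in CKO, a ratio of 1.44 (1.09 to 1.92). Among EC nuclei with 0 UMIs of fibroblast markers, a choice made after seeing the data, 21 control and 43 CKO UMIs gave a ratio of 1.96 (1.14 to 3.48), and among those with 0 immune marker UMIs the ratio was 1.03 (0.744 to 1.45). Other choices kept the lower CKO level, with ratios of 0.571 (0.488 to 0.668) for nuclei of any label with at least 2 endothelial markers, 0.646 (0.484 to 0.856) without proliferating nuclei and 0.549 for means of per-nucleus CPM. The direction of the *Vcam1* difference thus depended on the choice of nuclei. A UMI was found in 4.48% of control and 4.35% of CKO EC nuclei, against 0.644% and 0.167% of neurons. Nuclei were also grouped by zone, from the list of arterial, capillary or venous genes with most UMIs in each (at least 2 UMIs and no tie, with 65 of 2421 control and 143 of 2758 CKO zoned nuclei within 1 UMI of another zone). In arterial nuclei (87 in control, 58 in CKO) *Vcam1* was at 343 CPM (270.0 to 429) in control and 145 CPM (93.8 to 214) in CKO, a ratio of 0.423 (0.258 to 0.672). In capillary nuclei (2233 and 2637) it was at 20.9 and 21.7 CPM, a ratio of 1.04 (0.807 to 1.34), and the venous nuclei (101 and 63) held 2 control and 7 CKO UMIs, a ratio of 2.62 (0.498 to 25.8). The lower CKO level was thus found in the small arterial group and not in the capillary or venous one. Whether the zones differ in this was not tested. Genes that set the zones differed between the libraries themselves, 3 of 11 arterial and 6 of 8 capillary genes being lower in CKO, so membership may differ with genotype. Of the 200 *Vcam1* UMIs in control EC nuclei, 76 lay in the arterial group and 21 in nuclei with 0 UMIs of fibroblast markers. Most of those 76 thus came from nuclei with fibroblast marker UMIs, so the lower level cannot be placed in arterial ECs.

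*Madcam1* encodes the ligand of the integrin alpha-4 beta-7, known as an address for lymphocytes in vessels of the gut and its lymphoid tissue. Its 18 control and 120 CKO UMIs in ECs gave 3.10 CPM (1.84 to 4.90) and 17.5 CPM (14.5 to 20.9), a ratio of 5.64 (3.42 to 9.85). This ratio was among the highest in the EC sums, where 102 of 11351 genes (0.899%) had one at least as high. It lay between 3.64 and 8.64 over all choices of nuclei and scaling. EC nuclei held 18 of its 19 UMIs in the control brain library and 120 of 123 in the CKO library. A UMI was found in 13 control EC nuclei, or 0.525% (0.280 to 0.897), and in 104 CKO EC nuclei, or 3.53% (2.90 to 4.26). No neuron of either library had one, which allows a UMI in up to 0.0448% of control and 0.0441% of CKO neurons. These limits are on nuclei with a detected UMI and not on nuclei that express the gene. Thinned to 1000 UMIs, the shares in ECs were 0.340% and 1.48%. *Madcam1* transcripts were thus found in more CKO than control EC nuclei at matched depth, and in a minority of both.

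All *Madcam1* UMIs of zoned EC nuclei lay in the capillary group, 18 in control and 112 in CKO. The arterial and venous groups held 0 in both libraries, but they are small, and 0 UMIs allow up to 16.6 CPM in control and 21.4 CPM in CKO arterial nuclei, so a level like that of the capillary group cannot be told from 0 there. EC nuclei with UMIs of proliferation genes (*Mki67*, *Top2a*, *Cenpf*, *Hmmr*, *Kif11* or *Aspm*) numbered 298 in control and 912 in CKO. The ratio of *Madcam1* was 6.07 (2.25 to 23.0) in these and 5.10 (2.81 to 9.89) in the rest, so it was high with and without them. CKO nuclei with a *Madcam1* UMI had a median of 3529 UMIs against 1460 in those without. Of the 13 CKO nuclei with a *Sele* UMI, 1 also had one of *Madcam1*, which had a UMI in 3.53% of all CKO EC nuclei. With both genes this sparse, the values do not tell whether they mark the same or separate cells.

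*Pecam1* encodes a junction protein of ECs that also occurs on platelets and leukocytes. It was at 585 CPM in control ECs (566 to 605) and at 495 CPM in CKO ECs (479 to 512), a ratio of 0.847 (0.807 to 0.888). The CKO level was lower by more than the counting error and by less than the 1.5-fold used here. A UMI was found in 62.9% of control and 58.3% of CKO EC nuclei, against 0.207% and 0.0478% of neurons. As for *Cd34*, the direction turned for nuclei taken by 2 or more endothelial markers, with a ratio of 1.10 (1.05 to 1.15). The control library had 3384 such nuclei, more than its 2475 of the EC label, and the CKO library 3187, against 2944 of the EC label. The marker rule thus took in nuclei of other labels in both libraries, and their mix may differ with genotype.

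Across the 21 cell type labels of the brain, the share of each gene's UMIs that lay in EC nuclei differed between genes. In control it was 88.9% for *Cd34*, 85.0% for *Pecam1*, 81.2% for *Icam2* and 71.9% for *Icam1*, but 17.8% for *Vcam1*. In CKO, where the library held more EC and fewer mural nuclei, these shares were 98.6%, 97.7%, 95.8%, 93.6% and 45.0%. *Vcam1* was thus the one of these 5 genes found mainly outside ECs.

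For *Cd34*, ECs had the highest level in both libraries, followed by vascular smooth muscle cells (vSMCs; 109.9 CPM in control, 85.2 in CKO), with pericytes in control (32.8 CPM from 4 UMIs) and glia in CKO in the next place. The vSMC nuclei also held 7075 and 7517 CPM of endothelial markers. The order was the same for *Pecam1* (vSMCs 309.7 and 240.0 CPM), with pericytes next in control (123 CPM from 15 UMIs, 68.9 to 203), and 0 UMIs in the 22 pericyte nuclei of CKO. For *Icam2*, ECs (172 CPM) stood above vSMCs (134 CPM, 116 to 153) in control, while in CKO the vSMC level of 151 CPM (107 to 206) did not differ from that of ECs beyond the counting error. *Icam1* had its highest control level in microglia, at 75.1 CPM from 6 UMIs (27.6 to 163), which did not differ from that of ECs. ECs stood above the label glia (24.2 CPM, 17.5 to 32.8) and vSMCs (23.3 CPM, 16.3 to 32.2), and these 2 did not differ from each other. In CKO the order after ECs was the same, with 22.0 and 19.4 CPM and intervals that overlapped that of ECs, beside 1 UMI in pericytes.

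*Vcam1* in control was highest in vSMCs (166 CPM, 146 to 187), then in the label glia (153 CPM, 135 to 173) and astrocytes (124 CPM, 106 to 144), each of which overlapped its neighbor, followed by microglia (75.1 CPM from 6 UMIs) and the choroid plexus label CP_8 (55.4 CPM, 46.2 to 66.0). The label glia held 5458 CPM of the 7 fibroblast markers in control and 5070.2 CPM in CKO, and is called by its label here. In CKO the order was vSMCs (143 CPM, 101 to 197), astrocytes (131 CPM, 101 to 166), CP_8 (79.7 CPM, 60.3 to 103) and glia (50.1 CPM, 32.4 to 73.9), again with overlap between neighbors. The largest difference of *Vcam1* between the libraries among labels with at least 50 of its UMIs was in glia, where 265 control and 25 CKO UMIs gave a ratio of 0.327 (0.208 to 0.494). The ratio was 0.865 (0.596 to 1.22) in vSMCs, 1.05 (0.780 to 1.41) in astrocytes and 1.44 (1.03 to 1.98) in CP_8. *Vcam1* thus differed by more than counting error in glia, ECs and CP_8, in opposite directions, while vSMCs and astrocytes showed no difference beyond it. Outside ECs, *Madcam1* had 1 UMI, in pericytes of control, and 3, in vSMCs of CKO.

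**Figure D2:**
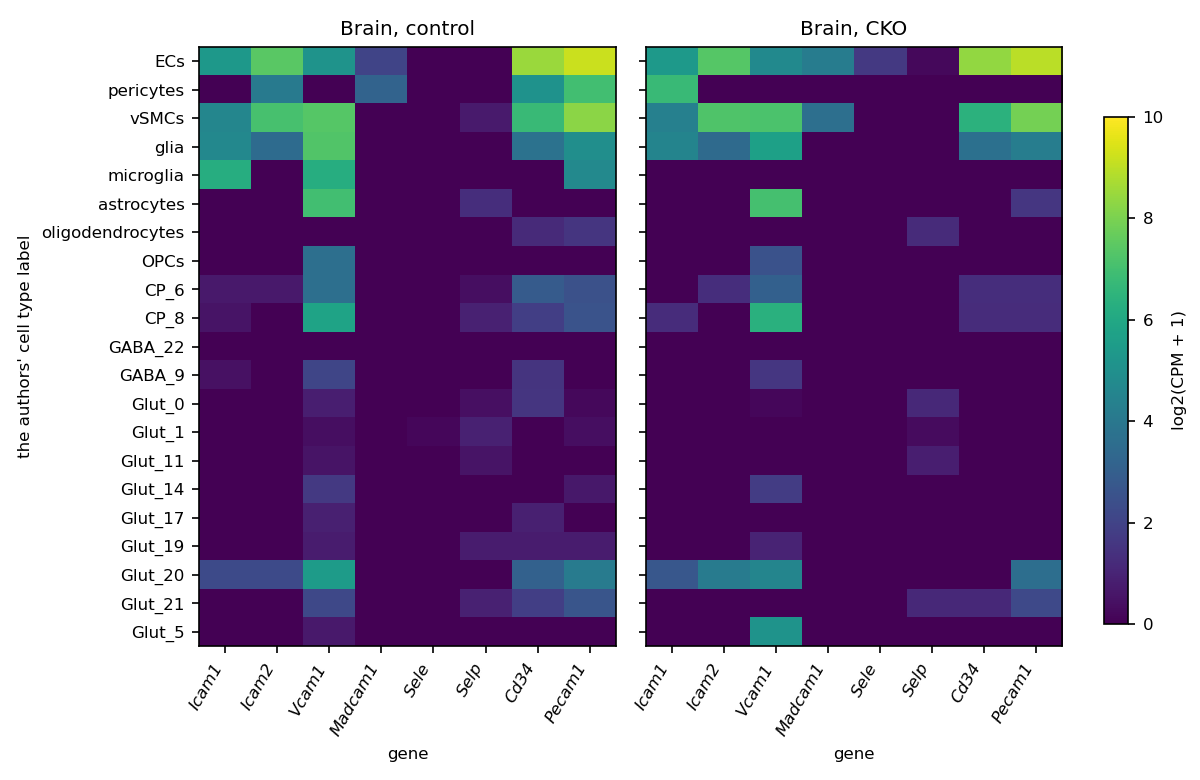
Level of the 8 adhesion genes, as log2(CPM + 1) from 0 to 10, in the 21 cell type labels of the authors for the brain control (left) and CKO (right) library. *Cd34* and *Pecam1* are highest in ECs and next in vSMCs in both libraries, and *Vcam1* is highest in vSMCs, at 166 and 143 CPM. Pericytes and microglia of CKO rest on 22 and 11 nuclei.

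The similarity of patterns over cell types was measured as Pearson's r of log2(CPM + 1) over 39 sums of a cell type in a library, which share their 2 libraries and differ in depth, among 14443 genes. The genes most like an adhesion gene were *Ly6a* (0.988), *Sox18* (0.984) and *Ifitm1* (0.984) for *Icam2*, and *Tie1* (0.974), *Eng* (0.973) and *Edn1* (0.972) for *Pecam1*. For *Icam1* they were *Samd9l* (0.956), *Map3k8* (0.951) and *Grn* (0.948). *Madcam1* had lower values, with *Clec1a* (0.851), *Bcl6b* (0.838) and *Tlr12* (0.838), as did *Vcam1*, with *Plekho2* (0.907), *Pdgfd* (0.848) and *Sdc4* (0.846). Among the adhesion genes themselves *Icam2* and *Pecam1* were most alike (0.923), and *Vcam1* and *Madcam1*, whose products share integrin alpha-4 as a partner, least alike (0.180). Outside ECs, *Madcam1* had UMIs only in control pericytes (1) and CKO vSMCs (3). Its values of r thus rest on few sums with any UMI and say little about its pattern over cell types.

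Genes that work with the adhesion molecules were followed as lists, given as counts at the same 1.5-fold and 50 UMIs. The lists were chosen with earlier results of these data known, so their counts are descriptions and not independent of the data. Since that minimum is on the sum of both libraries, a gene with fewer than 50 UMIs in its lower library could enter through the one where it was high. Among the genes named as higher this was so for *Cd44*, *Arhgef26*, *Fut4* and *Ackr1*, and among those named as lower for *Il1rap* and *Gcnt1*. Of 14 leukocyte counter-receptors, 4 had enough UMIs in brain ECs, with 2 higher, 0 lower and a median ratio of 1.41. *Itga4*, the integrin alpha-4 subunit that binds VCAM1 and MADCAM1, was at 394 CPM in control and 627 CPM in CKO ECs (ratio 1.59, 1.51 to 1.68). *Cd44*, which binds hyaluronan and E-selectin, was at 4.31 and 14.7 CPM (3.42, 2.19 to 5.53), with a UMI in 0.970% of control and 3.13% of CKO EC nuclei against 1.19% and 0.813% of neurons. The ratio was 1.22 for *Glg1* and 0.909 for *Itgb1*. Under TMM scaling 1 of these 4, *Cd44*, was higher, and *Itga4* was no longer past 1.5-fold.

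Of 20 other adhesion and diapedesis genes, 16 had enough UMIs, with 3 higher, 3 lower and a median ratio of 0.971. The highest were *Nectin2* (1.71), *Cd93* (1.66) and, just past 1.5-fold, *Cdh5*, which encodes VE-cadherin of EC junctions (667 CPM in control and 1003 CPM in CKO), and the lowest *Alcam* (0.570), *Bsg* (0.593) and *Vwf* (0.605). *Cdh5* was no longer past 1.5-fold under TMM scaling, which gave 2 higher and 4 lower. These genes of EC junctions and surface thus had ratios on both sides of 1, as did the adhesion genes.

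Of 18 genes of the docking structure and of ICAM and VCAM signaling, all had enough UMIs, with 3 higher, 1 lower and a median of 1.07. *Arhgef26*, an exchange factor for RhoG that acts below ICAM1, was at 6.72 CPM in control and 27.4 CPM in CKO (4.08, 2.88 to 5.92), *Cav1*, the main protein of caveolae, at 250.1 and 725 CPM (2.90, 2.73 to 3.07), and *Filip1* had a ratio of 1.80. *Arhgef26* had a UMI in 1.21% of control and 5.54% of CKO EC nuclei, against 3.99% and 2.13% of neurons. TMM scaling gave 3 higher and 2 lower. The lowest were *Src* (0.657), *Ptpn11* (0.714) and *Rhog* (0.767).

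Of 23 genes of cytokine and NF-kappaB input, 21 had enough, with 4 higher, 1 lower and a median of 1.18. *Chuk*, which encodes an I-kappaB kinase, was at 15.3 and 42.6 CPM (2.78, 2.18 to 3.56), and the NF-kappaB subunits *Relb* and *Nfkb2* had ratios of 2.39 (1.91 to 3.02) and 1.77 (1.40 to 2.25). The lowest were *Il1rap* (0.488), *Birc3* (0.830) and *Tnfrsf1b* (0.832). TMM scaling left these counts at 4 and 1.

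Of 18 genes of selectin ligand synthesis and high endothelial venules, the vessels through which lymphocytes enter lymph nodes, 12 had enough UMIs, with 6 higher, 2 lower and a median of 1.38. *Enpp2*, which encodes the lysophospholipase autotaxin, was at 122 CPM in control and 682 CPM in CKO ECs (5.59, 5.16 to 6.06). It had a UMI in 11.5% of control and 58.5% of CKO EC nuclei, against 7.73% and 2.94% of neurons. *Ackr1*, a chemokine receptor of venules, was at 3.62 and 22.3 CPM (6.17, 3.90 to 10.3), and *Fut4* at 2.07 and 6.13 CPM (2.96, 1.53 to 6.18). *Ackr1* overlaps *Cadm3* on the same strand, and neurons had its UMIs in 12.9% and 4.90% of nuclei, so UMIs of the 2 genes cannot be told apart. In ECs *Cadm3* itself was at 23 control and 14 CKO UMIs. CKO nuclei with a *Madcam1* UMI held 71.0 CPM of *Ackr1* (49.4 to 98.7) and those without 18.6 CPM (15.4 to 22.2). The lowest of this list were *Gcnt1* (0.345), *Chst2* (0.596) and *St3gal3* (0.753). Among the lists of EC zones, 0 of 11 arterial genes were higher and 3 lower, 0 of 8 capillary genes higher and 6 lower, and 1 of 9 venous genes with enough UMIs (*Ackr1*) higher and 3 lower. Over all genes compared, the shares were 21.4% and 9.32%, and no list was tested.

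On GRCm39, in the GENCODE M39 annotation, *Madcam1* lies on chromosome 10 from 79500209 to 79504371 (plus strand) and *Pecam1* on chromosome 11 from 106543689 to 106641454 (minus strand), and neither overlaps another gene. *Sele* (163867401 to 163886055), *Selp* (163942833 to 163977595) and *Cd34* (194621029 to 194647172) lie on the plus strand of chromosome 1. *Icam1* lies on chromosome 9 from 20926672 to 20940113 (plus strand), *Icam2* on chromosome 11 from 106263312 to 106278943 (minus strand) and *Vcam1* on chromosome 3 from 115903598 to 115923355 (minus strand). These 6 genes each overlap a gene on the opposite strand, which for *Icam2* is *Prr29* and for the others a long noncoding RNA. Whether the authors' counting used strand is not stated, so the UMIs of such a pair cannot be told apart.

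Promoter sequences from RefSeq (GRCm38.p6, 250 bases before to 50 bases after a start site) matched 5 of the 8 genes, *Icam1*, *Madcam1*, *Sele*, *Selp* and *Cd34*, and each was found at 1 place on its GRCm39 chromosome. These promoters were searched on both strands for 1 strict form of the consensus of the NF-kappaB binding site, since the cytokine-inducible adhesion genes are known targets of that factor. The *Madcam1* promoter held 2 matches, on chromosome 10 from 79500310 to 79500319 and from 79500323 to 79500332, which lie 83 to 74 and 70 to 61 bases before the start site and do not overlap. The other 4 promoters held 0, and 8.46% of all 32851 RefSeq promoters held at least 1. A match is a stretch of letters and does not show binding, and since looser forms were not searched, 0 matches do not show that a promoter lacks a site. *Madcam1* and *Sele* had the highest CKO levels relative to control, and *Icam1* did not differ beyond the counting error in EC-labeled nuclei. Their promoters are shown 5′ to 3′ on the plus strand with the matches in capitals. They lie at chr10:79500143-79500442, chr1:163875553-163875852 and chr9:20926986-20927285 on GRCm39. The RefSeq start sites of all 3 lie downstream of the first base of the gene in GENCODE, and both *Madcam1* matches lie inside the gene as annotated there.
Madcam1: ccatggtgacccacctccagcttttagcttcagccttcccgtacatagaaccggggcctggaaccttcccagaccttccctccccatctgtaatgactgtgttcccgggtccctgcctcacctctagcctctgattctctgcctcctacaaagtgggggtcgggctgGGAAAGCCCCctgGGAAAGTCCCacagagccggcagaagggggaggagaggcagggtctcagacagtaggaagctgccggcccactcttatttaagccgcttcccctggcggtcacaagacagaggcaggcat
Sele: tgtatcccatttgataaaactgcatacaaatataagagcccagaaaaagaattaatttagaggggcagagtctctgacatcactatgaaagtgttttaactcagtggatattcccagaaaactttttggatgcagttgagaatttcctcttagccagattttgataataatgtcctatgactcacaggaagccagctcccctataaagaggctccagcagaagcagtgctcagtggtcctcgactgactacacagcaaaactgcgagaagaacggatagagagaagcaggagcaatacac
Icam1: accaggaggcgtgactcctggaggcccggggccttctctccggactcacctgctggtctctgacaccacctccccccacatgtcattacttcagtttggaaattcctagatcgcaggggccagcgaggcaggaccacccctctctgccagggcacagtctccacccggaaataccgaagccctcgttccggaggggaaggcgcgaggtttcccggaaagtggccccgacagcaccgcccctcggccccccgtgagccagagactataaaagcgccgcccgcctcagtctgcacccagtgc

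In the retina, where 1 control library stands against 11 CKO libraries, no adhesion gene passed the test in any cell type. ECs are not among the 11 labels of the retina. Nuclei with UMIs of at least 3 endothelial markers numbered 10 in control and 170 in CKO, and the 10 held 0 UMIs of *Madcam1* and *Sele*, as did the 170. Among these markers *Flt1* was also abundant in Müller glia, so such nuclei need not be ECs and do not give the levels of retinal ECs. The levels in whole retinas and in the labeled cell types are therefore those of mixed tissue and of neurons, glia and immune cells. The authors' batch labels put CKO replicates 1 to 3 with the control (batch 1), replicates 4 and 5 in batch 2 and replicates 6 to 11 in batch 3, so a comparison within a batch exists for batch 1 alone. Levels over whole libraries were compared with a two-sided exact permutation test over libraries, which cannot give a p below 0.0833 with 1 control.

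*Icam1* in whole retinas was at 0.387 CPM in control, and at 0.418 (lowest), 0.735 (median) and 22.1 CPM (highest) in CKO. All 11 CKO libraries were above the control, and the highest, replicate 4, rests on 2 UMIs. The exact permutation p was 0.167, and without replicate 4 the highest CKO level was 1.60 CPM and p was 0.273. Within batch 1, all 3 CKO libraries were above the control (0.418 to 1.02 CPM, p = 0.5 by the same exact test). Without nuclei of the immune label, 9 of 11 CKO libraries were above the control (0.292 CPM), with a CKO median of 0.471 CPM.

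*Vcam1* was at 5.39 CPM in control, and at 2.59, 3.96 and 22.1 CPM (lowest, median and highest) in CKO. Of the CKO libraries 9 were below and 2 above the control, so the groups overlapped. The mean difference, CKO minus control, was 0.304 CPM with all libraries (exact permutation p = 0.917) and -1.34 CPM without replicate 4 (p = 0.364), whose level again rests on 2 UMIs. In batch 1 it was -2.01 CPM, with the control above all 3 CKO libraries (exact p = 0.25, the smallest possible for 1 against 3).

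*Pecam1* was at 13.9 CPM in control, and at 9.17, 14.5 and 55.3 CPM (lowest, median and highest) in CKO. The control lay within the CKO range, with 7 of 11 CKO libraries above it (exact permutation p = 0.583). The mean difference was 5.38 CPM with all libraries and 1.79 CPM without replicate 4. Without nuclei of the immune label it was 0.150 CPM, with 6 of 11 CKO libraries above the control. In batch 1 all 3 CKO libraries were below the control and the difference was -3.03 CPM (p = 0.5), so its direction turned within the batch.

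The remaining genes were sparse. *Icam2* was at 0.129 CPM in control and at 0 to 0.498 CPM (median 0.222) in CKO, with 8 of 11 above the control. *Selp* was at 0.968 CPM in control and at 0 to 1.30 CPM (median 0.466) in CKO, with 2 of 11 above. *Cd34* was at 0.581 CPM in control and at 0 to 0.851 CPM (median 0.286) in CKO, with 1 of 11 above. The exact permutation p was 0.75, 0.583 and 0.25 for these genes, and in each the groups overlapped. *Madcam1* and *Sele*, the genes with the highest ratios in brain ECs, had 0 UMIs in the control retina and 3 each in CKO retinas, too few for a fold. The 3 UMIs of *Madcam1* lay in replicates 7 and 10 and those of *Sele* in replicate 9, all of batch 3.

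**Figure D3:**
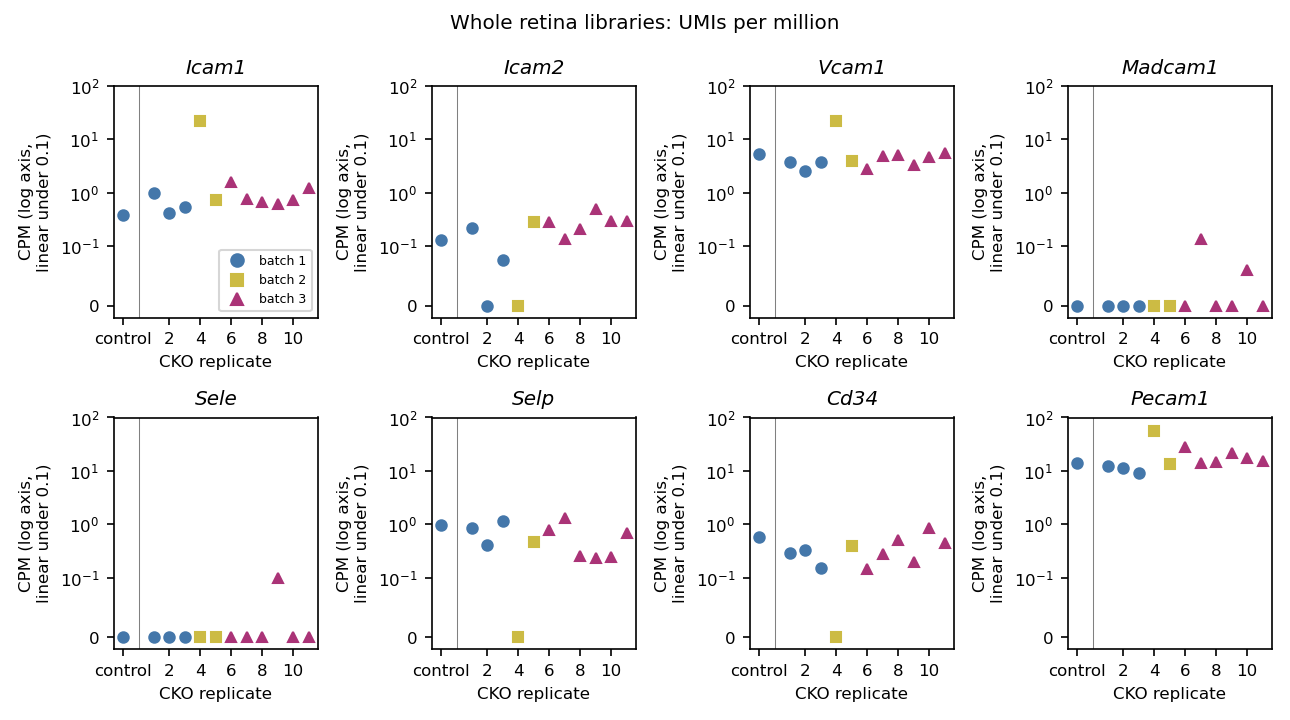
CPM of each adhesion gene over all nuclei of a retina library, on a log axis that is linear under 0.1 CPM, for the control and CKO replicates 1 to 11, with color and shape for the authors' batches. CKO replicate 4, which has 104 nuclei, is the highest for *Icam1*, *Vcam1* and *Pecam1*, and *Icam1* is above the control in all 11 CKO libraries.

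By cell type, UMIs were summed per library and tested across all genes with edgeR's quasi-likelihood test, with the PIPseq kit as a covariate and Benjamini-Hochberg adjustment at 0.05, in the 10 types with at least 20 nuclei in the control and in at least 6 CKO libraries. With a single control, the spread between libraries in these tests is that of the CKO group. Of the adhesion genes, *Pecam1* passed the filter on low counts in 10 types, *Vcam1* in 2, *Icam1* and *Selp* in 1 each, and *Icam2*, *Madcam1*, *Sele* and *Cd34* in 0. Of these 14 tests, 0 passed at an adjusted p of 0.05 and 0 at an unadjusted p under 0.05. DESeq2 also gave 0 at either, of 62 tests, 40 of which had an adjusted p. The share of all genes called by edgeR was 0% in cone bipolar cells (CBC), horizontal cells (HC), immune cells, rod bipolar cells (RBC), retinal ganglion cells (RGC) and rods, 0.0104% in cones, 0.00676% in GABAergic amacrine cells (GABA_AC), 0.00726% in glycinergic amacrine cells (Gly_AC) and 0.0077% in Müller glia (MG).

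Müller glia held most of the retinal *Vcam1*, with 71.3% of its UMIs in the control library and 63.7% in the CKO libraries. Its level in MG was 78.8 CPM in control (65.2 to 94.2), and 30.8, 45.2 and 66.2 CPM (lowest, median and highest) in the 10 CKO libraries with enough MG nuclei. The control was above all 10. The log2 fold change was -0.71 (SE 0.34), with an edgeR p of 0.0583 before and 0.846 after adjustment (between 0.0316, without the kit covariate, and 0.124, with the batch as covariate, before adjustment in the alternatives). The lower level in the CKO libraries was thus in the same direction in all 10 and did not pass the test, and with 1 control library a property of that library and the genotype cannot be told apart. MG nuclei also held 1285 CPM of endothelial markers in control, most of it *Flt1*. In GABA_AC the other test of *Vcam1* gave 3.61 CPM in control (2.20 to 5.57) and 0.326 to 4.13 CPM (median 1.43) in CKO, with 2 of 10 above the control and a log2 fold change of -1.07 (SE 1.02, edgeR adjusted p = 1.00). In Gly_AC, where *Vcam1* did not pass the filter, the control had 0 UMIs, which allows up to 1.04 CPM, and 9 of 10 CKO libraries had some (median 1.08 CPM, edgeR p 0.0288 before and 0.954 after adjustment without the filter), the other direction from MG. In RGC, where it did not pass the filter either, the control (4.53 CPM from 11 UMIs) was above all 11 CKO libraries (highest 3.43 CPM), the same direction as in MG.

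In the CKO libraries *Icam1* was highest in immune cells and astrocytes. In the 29 immune nuclei of control 3 UMIs gave 26.2 CPM (5.40 to 76.6), and the 10 CKO libraries with enough of them had 7.19, 32.2 and 50.0 CPM (lowest, median and highest), 6 above and 4 below the control, too few counts for the edgeR test. The CPM of *Icam1* in the immune sums thus overlapped between the genotypes, while immune nuclei were a larger share of the CKO retinas. By the study's account, microglia were the only immune nuclei from control retinas, while CKO retinas also held other immune cells. The immune sums of control and CKO thus differ in cell mix and do not compare like cells. In MG *Icam1* had 0 UMIs in the 402 control nuclei, which allows up to 2.44 CPM, and 33 in CKO, where 6 of 10 libraries had any and the levels were 0, 1.35 and 11.1 CPM (lowest, median and highest). Its edgeR adjusted p was 0.883. Retinal astrocytes, of which the control had 12 nuclei, were not tested. There *Icam1* and *Vcam1* had 0 UMIs in control, where 0 allows up to 118 CPM, and 20.0 to 54.2 CPM and 39.9 to 149 CPM in the 4 CKO libraries with at least 20 astrocyte nuclei. At this depth a difference in astrocytes was not detectable.

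*Pecam1* was detected in every retinal label. Rods held 58.7% of its UMIs in the control library and 47.1% in the CKO libraries, at 29.4 CPM (25.9 to 33.3) in control, and the CKO libraries had 19.5, 26.7 and 45.2 CPM (lowest, median and highest) in rods, 4 of 10 above the control. All 12 endothelial markers together had 41 UMIs, or 4.77 CPM, in control rods, where *Pecam1* UMIs thus came with few transcripts of other endothelial genes. The log2 fold change in rods was 0.08 (SE 0.42, edgeR adjusted p = 1), and its sign was negative without the kit covariate (-0.0302), with the batch as covariate (-0.38) and within batch 1 (-0.37). In RBC *Pecam1* was at 5.73 CPM in control (2.96 to 10.0), and at 6.71, 11.1 and 29.1 CPM (lowest, median and highest) in CKO, all 10 above the control. The log2 fold change of 1.24 (SE 0.72) had an edgeR p of 0.108 before and 1 after adjustment (between 0.0470, without CKO replicates 4 and 5, and 0.138, without the kit covariate, in the alternatives before adjustment). In immune cells *Pecam1* had 0 UMIs in control, which allows up to 32.2 CPM, and 0, 37.5 and 116 CPM (lowest, median and highest) in CKO, with UMIs in 9 of 10 libraries and an adjusted p of 0.998. The upper limit of the control thus lay below the CKO median but within the CKO range. At this depth the *Pecam1* level of the control could not be placed below that of every CKO library. As for *Icam1*, the immune sums of control and CKO also differ in cell mix. In CBC, cones, GABA_AC, Gly_AC, HC, MG and RGC the control level of *Pecam1*, 5.05 to 10.8 CPM, lay within the range of the CKO libraries. Its log2 fold change in GABA_AC, Gly_AC, MG and RGC was positive with the kit covariate and negative with the batch as covariate. For *Cd34*, which passed the filter in no type, the control was above all 10 CKO libraries in cones (2 control UMIs), RBC (4) and immune cells (3). In Gly_AC 6 of 10 CKO libraries were above the control. Without the filter, edgeR gave *Cd34* a p of 0.0215 in cones and 0.025 in RBC before adjustment, and 0.917 and 0.926 after. *Selp* was tested in rods, at 0.930 CPM in control and 0 to 2.43 CPM (median 0.680) in CKO, with 3 of 10 above the control and a log2 fold change of 0.08 (SE 1.41, edgeR adjusted p = 1), which was -0.33 without the kit covariate and -0.0376 in nuclei with at least 1000 UMIs.

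**Figure D4:**
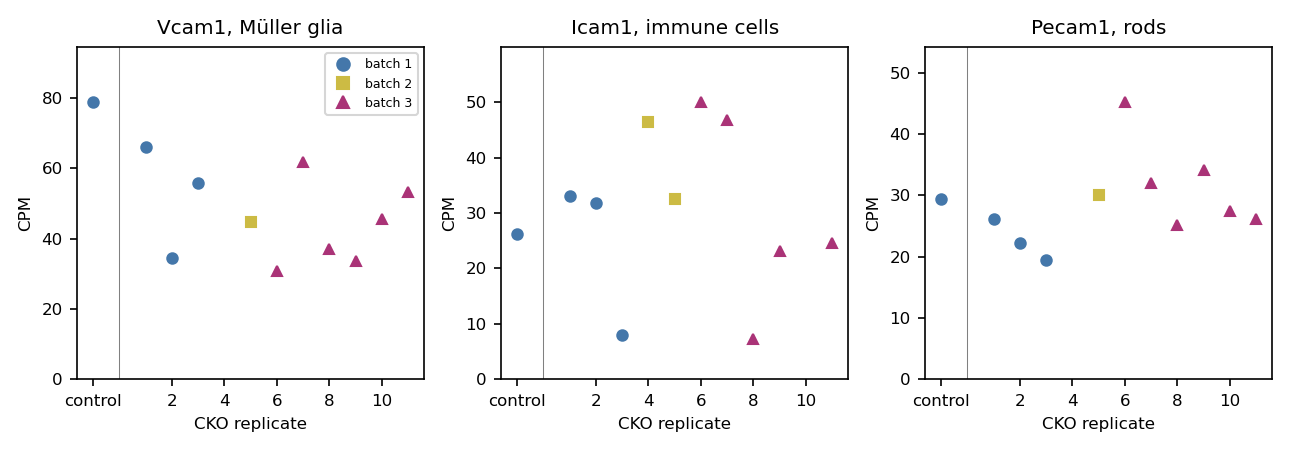
CPM per library of *Vcam1* in Müller glia, *Icam1* in immune cells and *Pecam1* in rods, for the control and the CKO libraries with at least 20 nuclei of the type, with color and shape for the authors' batches. For *Vcam1* the control, at 78.8 CPM, is above all 10 CKO libraries (30.8 to 66.2 CPM), and for the other panels it lies within the CKO range.

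Of the partner genes, 518 tests of the 5 lists in the 10 retinal types gave 0 called by edgeR at an adjusted p of 0.05. At an unadjusted p under 0.05 edgeR had 27 of the 518, beside 2.98% of its tests of all genes. DESeq2, which tested more sparse genes, called 1 of 705 with an adjusted p, beside 0.586% of all genes, and had 29 of 869 at an unadjusted p under 0.05, beside 1.88%. The 518 edgeR tests were 155 of docking structure genes, 148 of cytokine and NF-kappaB input, 103 of other adhesion genes, 74 of selectin ligand and high endothelial venule genes and 38 of counter-receptors. Median log2 fold changes of a list within a type ranged from -0.19 to 0.83.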

How the data were processed

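The deposited matrices hold integer counts of UMIs, by nucleus and gene. The authors counted UMIs with PIPseeker against GRCm39, used CellBender against empty droplets and background and SOLO against doublets, and by hand took out mixed nuclei and, separately, clusters with multiple nuclei from retina CKO replicates 4 and 5. No doublet caller or further filter was applied here. Cell type, batch and kit are the authors' labels. Background removal can lower counts of sparse genes such as *Sele*.

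UMIs were summed per library and label and divided by the total of the sum (CPM). Libraries were the replicates. Retinal sums were tested with edgeR 4.0.16 (TMM, filterByExpr, kit as a covariate) or DESeq2 1.42.0 in R 4.3.3, and this code was tested on simulated data. The remaining work was done in Python 3.11.15 with pandas 2.3.3, numpy 2.4.6, matplotlib 3.10.9 and scipy 1.17.1. The likeness of patterns used sums with at least 50000 UMIs and, as partners of the 6 adhesion genes with at least 50 UMIs in ECs, genes with at least 200 UMIs.

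The genes and lists were chosen with earlier results of these data known. Named were all 8 adhesion genes, *Tgfbr1*, from each list the 3 genes with the highest and the 3 with the lowest ratio in brain ECs among those with at least 50 UMIs, list genes called in the retina by edgeR (0), and for likeness the 3 genes of highest r (not given for *Cd34*). *Xist* and *Cadm3* were added after their values had been seen. From the lists of EC zones counts are given. p-values adjusted over the 8 genes alone are not given. Alternatives covered scaling, depth, marker-based nuclei, proliferating nuclei, covariates, left-out libraries and DESeq2. P-values measure the spread between libraries.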

Additional observations from a re-analysis of the deposited data

Results flagged for a closer look

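In 16 groups of 4 to 10 CKO retina libraries, the gap of the highest or lowest library to its neighbor was compared with the range of the group, and 2 values stood apart, both from 1 library. *Pecam1* in Müller glia of CKO replicate 6 was at 32.0 CPM, against 14.4 CPM in the next library (gap over range 0.648, critical value 0.466 for 10 libraries). *Pecam1* in rod bipolar cells of CKO replicate 6 was at 29.1 CPM, against 17.5 CPM in the next (0.517). Chance gives such a value in about 1 in 20 groups. No cause was tested.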

How the results depend on the processing

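In brain ECs, 31 of 48 ratios recomputed under other choices stayed within the interval of the reported one, and *Madcam1* lay between 3.64 and 8.64. Nuclei of any label with 2 or more endothelial markers gave 1.27 for *Icam1*, 1.19 for *Icam2*, 0.571 for *Vcam1*, 1.25 for *Cd34* and 1.10 for *Pecam1*. TMM scaling gave 0.851 for *Cd34* and 0.788 for *Pecam1*. EC nuclei with 0 immune marker UMIs gave 1.03 for *Vcam1*, 0.822 for *Cd34* and 0.802 for *Pecam1*, and those with 0 fibroblast marker UMIs, chosen after seeing the data, 1.96, 0.787 and 0.797. EC nuclei with more endothelial than mural markers gave 1.44 for *Vcam1*, and means of per-nucleus CPM gave 0.549 for *Vcam1*, 0.801 for *Cd34* and 0.748 for *Pecam1*. The count of adhesion genes past 1.5-fold was 1, but 0 with at least 200 UMIs, 3 with no minimum and 2 for nuclei taken by markers. The causes were not tested.

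In whole retinas, the difference of *Vcam1* (0.304 CPM) was -1.34 without CKO replicate 4, -1.33 without replicates 4 and 5, -1.70 without immune nuclei and -2.01 in batch 1, where those of *Icam2* and *Pecam1* were -0.0291 and -3.03 CPM and *Madcam1* and *Sele* had 0 UMIs. Of 32 log2 fold changes recomputed for *Vcam1* in Müller glia, *Pecam1* in rod bipolar cells and rods and *Selp* in rods, 5 turned sign: *Pecam1* in rods without a covariate (-0.0302), with the batch as covariate (-0.38) and in batch 1 (-0.37), and *Selp* in rods without a covariate (-0.33) and for nuclei with at least 1000 UMIs (-0.0376). *Pecam1* also turned from positive to negative with the batch as covariate in GABA_AC (-0.26), Gly_AC (-0.24), Müller glia (-0.13) and RGC (-0.40), and in batch 1 in GABA_AC (-0.26), Gly_AC (-0.25) and RGC (-0.40). In CBC and HC, where it was near 0 (both -0.01), its sign also varied. In 8 alternatives 0 adhesion genes were called, with 5 of 62 at an unadjusted p under 0.05 without a filter (2.68% of all genes), 1 of 14 without a covariate (*Vcam1* in Müller glia; 2.48%), 1 of 13 without replicates 4 and 5 (*Pecam1* in rod bipolar cells; 3.70%) and 0 in the other 5. Over all genes and the 10 types edgeR called 4 with the reported design, 11 without a filter, 8 without a covariate, 7 with the batch and 71 in batch 1, and DESeq2 called 1089. No paired analysis was possible because the genotypes share 1 replicate number, with a single control library in each tissue. Sparse genes were limited by depth: 0 UMIs in control ECs allow up to 0.636 CPM.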
